A study of Caenorhabditis elegans with 2 samples.

Results

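Runs of narrow CHD-3 peaks are stretches of the C. elegans genome in which short sites of CHD-3 recovery follow each other closely. They were taken from the peak list of a chromatin immunoprecipitation and sequencing (ChIP-seq) experiment, and their members were selected on the deposited peak positions. All peaks of a chromosome were chained wherever the gap to the next was under 500 bp, and a chain was kept when it held 3 or more peaks and every peak was under 1000 bp wide. This gave 176 runs with 627 of the 4940 peaks of the list, or 12.7% (95% exact binomial interval 11.8 to 13.7%). The remaining 87 of the 263 chains of 3 or more peaks each held at least 1 broader peak and were set aside. Number, width and gaps of the peaks chose the runs, so they are given as a description. The score was not used by the rule, but it goes with width.

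The series holds 1 CHD-3 immunoprecipitate and 1 input DNA library, both numbered replicate 2 in the labels. Both came from hermaphrodites of strain fem-2(b245), genotype fem-2(b245)III, grown at 20 °C and labelled as young adults with a germline, whereas the growth protocol describes a harvest of gravid adults. The fem-2 gene takes part in sex determination and b245 is a temperature-sensitive allele; with no wild-type animals in the series, nothing here can be set against an intact fem-2. Frozen animals were ground and fixed with 1% formaldehyde for 10 minutes. Whole worms were used, so a peak can stem from the germline, from somatic cells, from embryos if the animals were gravid, or from a mixture. The antibody was an affinity-purified rabbit polyclonal against CHD-3. The peak list of the immunoprecipitate was analysed and has no replicate, and no values of the input library were used. The depth behind it is unknown. Peaks of 1 list are not replicates, so no test was made, and the intervals below cover counting error only and treat peaks or runs as independent.

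CHD-3 belongs to the Mi-2 family of chromodomain helicases, ATP-driven enzymes that move nucleosomes and, in many animals, form the core of nucleosome remodelling and deacetylase (NuRD) complexes. C. elegans has a close relative of it, LET-418, which is needed for development and keeps germline genes silent in somatic cells. Mi-2 proteins carry chromodomains and PHD fingers, through which they contact histones and DNA, and in flies Mi-2 is found at promoters, at enhancers and along transcribed genes. Peaks could not be assigned to genes here, because no annotation on the build of the list, WormBase WS220, was at hand. For the same reason no sequence is shown.

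Most runs were short. Of the 176 runs, 118 or 67.0% held 3 peaks, 37 held 4 and 13 held 5, and the other 8 held 6 to 10. The median run spanned 1625.5 bp from its first to its last base (95% interval of the median 1553 to 1773 bp), with quartiles of 1382.75 and 2019 bp and extremes of 748 and 5693 bp. Chains of 3 or more peaks that included a broad one spanned more, with a median of 3883 bp, to which their wider peaks contribute. All runs together measured 316.9 kb, or 0.317% of the chromosome spans, and held 9.45% of the bases covered by peaks in the list.

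Peaks filled most of the typical run. The median covered share was 78.8% (95% interval of the median 75.8 to 80.5%), and 79 runs were covered to 80% or more while 2 stayed under 50%. The share changed little with the number of peaks, with medians of 78.7% in runs of 3, 78.1% in runs of 4 and 78.2% in runs of 5. In the 8 runs of 6 or more it was 83.2%, but those 8 ranged from 46.9 to 87.99%. Chains with a broad peak had a median of 89.7%. The fullest run, on II from 10033425 to 10035036, was covered to 98.0%, and the next were X from 188433 to 190036 at 97.4% and IV from 12509799 to 12512148 at 96.9%. The emptiest were II from 10848200 to 10849629 at 45.2%, I from 11228813 to 11231359 at 46.9% and IV from 4023413 to 4025029 at 51.5%.

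The runs with most peaks are described singly here, although most runs held 3 peaks. The run with most peaks, 10, lay near the right end of X from 17441973 to 17447665. It spanned 5693 bp and was covered to 79.4%. Its scores, from left to right, were 289.6, 154.9, 87.0, 122.7, 86.4, 65.3, 58.8, 220.6, 86.9 and 173.1, so the highest peak stood at the left edge and the low ones in between. The run of 9 peaks on IV from 12321206 to 12325641 had the same low middle, with a score of 199.7 at its left edge, 67.2 to 104.0 in the next 5 peaks, and 250.0, 203.7 and 176.0 in the last 3. On III a run of 8 from 11642045 to 11647497 was made of wider peaks, from 394 to 866 bp. Its scores ran from 102.7 to 456.3 with a median of 225.0, and its distances between neighbouring midpoints were 696, 692, 949.5, 655, 663, 692 and 523.5 bp.

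A run of 8 peaks on IV from 13929182 to 13933161 alternated between wider and narrower peaks for much of its length. Its widths were 562, 256, 524, 473, 257, 456, 338 and 477 bp, and the matching scores were 328.7, 99.7, 307.5, 239.2, 93.8, 268.0, 115.5 and 243.0. The 3 narrowest peaks were thus also the 3 lowest in score. Also on IV, the run of 7 peaks from 6682757 to 6687524 had scores of 216.8, 337.6, 274.4, 117.0, 198.0, 114.5 and 450.1, highest at its right edge, and a run of 6 from 14212002 to 14214773 had low scores of 57.2 to 149.6. The other runs of 6 were low as well. On V from 15555777 to 15557632 the scores were 51.7 to 150.8 over 1856 bp. On I from 11228813 to 11231359 they were 50.4 to 73.1, and this was the most widely broken of the 10 runs with most peaks. The runs of 5 with the longest spans completed these 10. They lay on V from 1834515 to 1837604, scored 75.02 to 369.1, and on II from 5073363 to 5076318, scored 51.5 to 272.7.

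**Figure D1:**
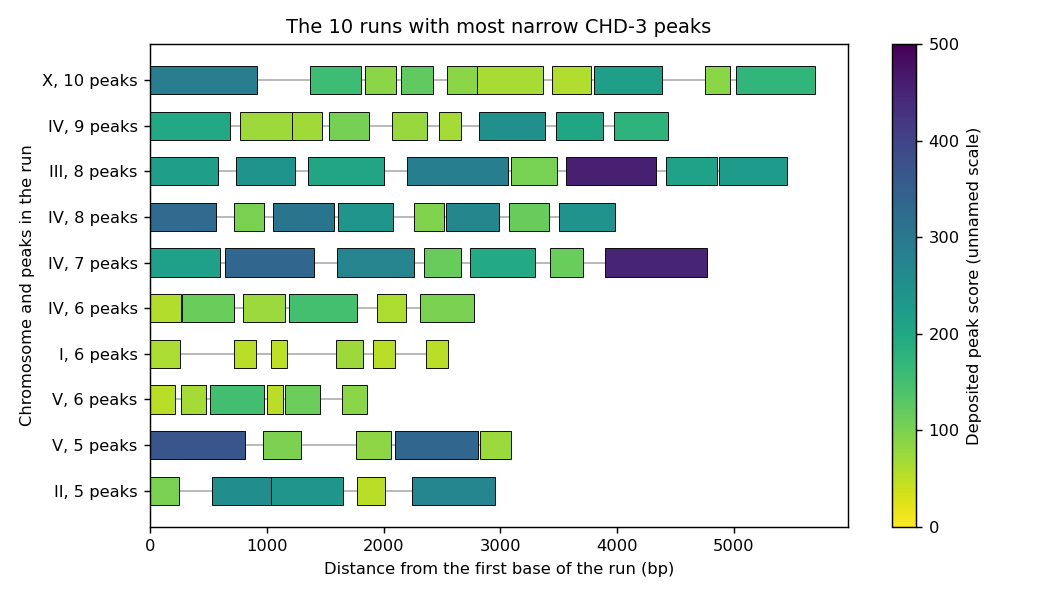
Each row is 1 of the 10 runs with most peaks, drawn to scale from its first base (horizontal axis, bp). Boxes are peaks coloured by deposited score and grey lines are gaps; the X run of 10 peaks measures 5693 bp, and the run of 6 on I, covered to 46.9%, has the widest gaps for its length.

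Neighbouring peaks in runs were typically some 500 bp apart, over a broad range. The 451 distances between neighbouring midpoints had a median of 520.5 bp (95% interval of the median 504 to 542.5 bp), with quartiles of 387.5 and 661.75 bp, and ran from 182.5 to 1270 bp. In 50 bp bins, the fullest was 500 to 549 bp with 57 distances, or 12.6%, against 39 and 36 in the bins on either side. The distances from 300 bp to under 700 bp numbered 316, or 70.1%. The rule bounds these distances, because widths stayed under 1000 bp and gaps under 500 bp. The gaps themselves had a median of 115 bp and were mostly short, with 125 of 451, or 27.7%, under 50 bp and 38 of 10 bp or less. At the other end 120, or 26.6%, measured 250 bp or more. Narrow peaks that stood in pairs had a similar median gap of 131 bp, whereas in chains with a broad peak it was 73.5 bp and 38.9% of the gaps were under 50 bp.

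**Figure D2:**
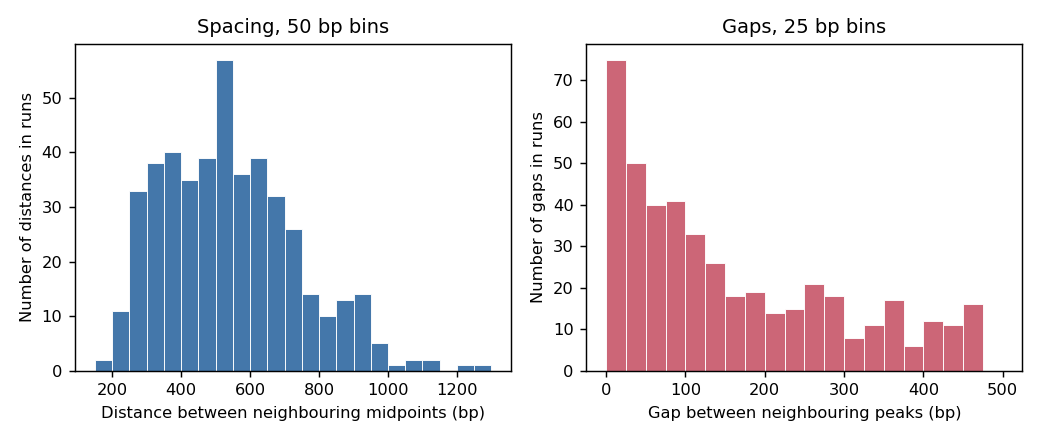
Left, number of distances between midpoints of neighbouring peaks in runs, in 50 bp bins; right, number of gaps between those peaks, in 25 bp bins. Distances form 1 broad hump with its fullest bin at 500 to 549 bp, and gaps are most frequent under 25 bp, where 75 of 451 lie.

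Spacing within a run varied from even to irregular. As a measure, the coefficient of variation (CV, the SD of the distances in a run divided by their mean) was taken in the 58 runs of 4 or more peaks. Its median was 0.269 (95% interval of the median 0.229 to 0.363), and it was 0.376 when distances were taken between the starts of peaks. With only 3 to 9 distances in a run each CV is imprecise, and the widths and gaps behind it were bounded by the rule. It was under 0.2 in 16 of the 58 runs and over 0.5 in 8. Mean distances of these runs ranged from 303.7 to 827.2 bp, with quartiles of 432.9 and 557.5 bp. Of the variance of their 215 distances, 36.2% lay between runs. Both the range and this share include scatter from the few distances in each run. Whether the runs share a single distance was not tested. Of 275 pairs of adjacent distances, 103 or 37.5% were within 1.2 times of each other and 41 or 14.9% differed 2 times or more.

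Gaps were less even for their size. Within a run the median SD was 138.8 bp for the distances and 124.4 bp for the gaps, which are much shorter, and the CV of the gaps was the higher one in 56 of 58 runs. Among the 21 runs of 5 or more peaks, the most even were on IV from 1854579 to 1856393, with distances of 323, 360.5, 426 and 404.5 bp (CV 0.121), on II from 5073363 to 5076318, with 662.5, 559.5, 546.5 and 710.5 bp (CV 0.129), and on IV from 13929182 to 13933161 (CV 0.130). The mean distance of the first was 378.5 bp and that of the second 619.75 bp. The least even were on III from 323978 to 326642 (CV 0.577), X from 2992671 to 2995144 (CV 0.544) and V from 15682333 to 15684697 (CV 0.50). The run on V was nevertheless covered to 96.8%, with gaps of 3 to 31 bp beside distances of 230 to 722.5 bp.

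Few peaks in runs had high scores. Their median deposited score was 107.7 (95% interval of the median 101.2 to 116.4), with quartiles of 74.2 and 205.9. The file names no scale for the score. In the list it starts at 50, and many peaks share the value 3100. None of the 627 run peaks reached 3100, which allows a share of up to 0.478% (3 counts of 627, counting error only). Of the 2542 isolated narrow peaks, those with no neighbour nearer than 500 bp, 2 did so. The counts were 1 of 938 narrow peaks in pairs, 2 of 359 chained with a broad peak, and 108 of 474 broad peaks. Such scores were thus rare among narrow peaks of every kind, and their absence is not shown to be particular to runs. Scores of 1000 or more were held by 10 run peaks, or 1.59%, against 37 or 1.46% of the isolated ones and 53.2% of the 474 broad peaks. Scores under 60 were held by 83 run peaks, or 13.2%, and by 16.8% of the isolated ones.

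At equal width, the scores of peaks in runs differed little from those of isolated peaks. Run peaks were somewhat wider, with a median of 326 bp (95% interval of the median 307 to 349 bp) against 288.5 bp (281 to 298 bp) for isolated narrow peaks, whose median score was 100.6. Compared in width bins of 100 bp, the median score of run peaks was higher in 4 bins and lower in 5. In the most populated bin, 200 to 299 bp, it was 78.1 in 197 run peaks and 78.8 in 893 isolated peaks, and at 100 to 199 bp it was 57.0 and 56.9. The largest gap in favour of runs was 414.2 against 332.6 at 700 to 799 bp, from 22 run peaks. The average ratio over the bins, weighted by run peaks, was 1.01, and the median run peak stood at the 50.6th percentile of the isolated peaks of its width (95% interval of the median 45.9 to 53.4). That interval allows a shift of a few percentiles in either direction. Narrow peaks in pairs gave 50.4 and narrow peaks chained with a broad one 51.1.

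**Figure D3:**
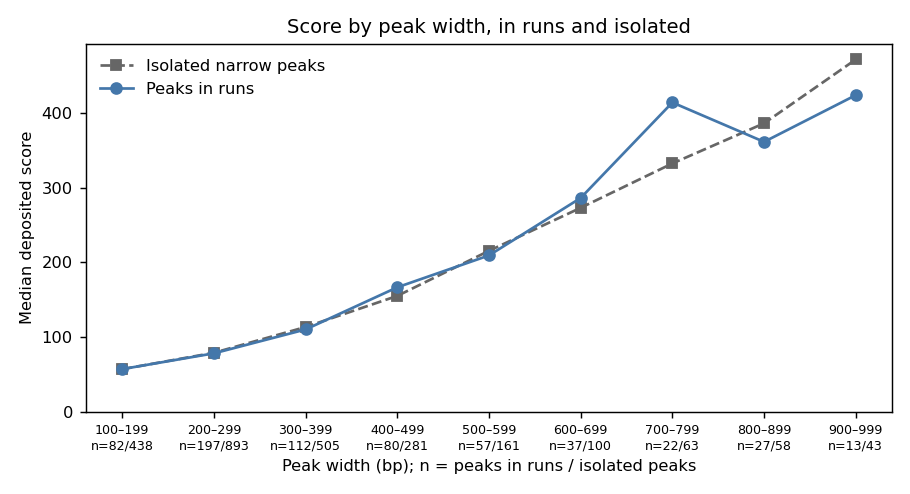
Median deposited score (vertical axis, unnamed scale) of peaks in runs and of isolated narrow peaks in 9 width bins of 100 bp, with the number of peaks of each kind under the axis. The lines run close together in the 6 narrower bins and differ most at 700 to 799 bp, where 22 run peaks had a median of 414.2 and 63 isolated peaks one of 332.6.

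Scores were spread within a run, and neighbouring run peaks were weakly alike in score (Spearman's rho 0.18 over 451 neighbouring pairs, a description). The median difference between the highest and the lowest score of a run was 142.4, and the median lowest and highest scores were 65.9 and 212.5. In 134 of 176 runs, or 76.1%, the highest peak was also the widest, and the widest was at the median 2.18 times as wide as the narrowest. Peaks at either edge of a run had a median score of 120.4 (95% interval of the median 105.5 to 137.4) and a median width of 350.5 bp, whereas those inside had 99.8 (96.4 to 108.7) and 302 bp. Edge and inside peaks were not compared at equal width or equal run length. In the 118 runs of 3, the highest score stood first in 43, in the middle in 31 and last in 44. In runs of 4 or more it was inside in 32 of 58, or 55.2%, where 57.5% of the peaks were inside.

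Whole runs ranged from the weakest calls of the list to strong ones. In 20 runs every score was under 100, in 24 at least 1 peak reached 500, and in 5 all peaks scored 200 or more. The run with the highest median, on V from 14755468 to 14757485, had scores of 1777.2, 459.9 and 1934.3, with a 219 bp peak between 2 wider ones. On II from 10033425 to 10035036 the pattern was similar at 1046.8, 149.2 and 961.4. The third, on III from 11159948 to 11161840, fell from 2415.0 through 667.7 to 58.3 and held the highest score of any run peak. At the low end were IV from 16244090 to 16245431, with 129.8, 50.1 and 50, the I run of 6 peaks with a median of 51.5, and IV from 2013803 to 2015169, with 53.3, 194.2 and 53.9. The median score of a run and its number of peaks were only weakly related across the 176 runs (Spearman's rho -0.14, a description), and rho was 0.51 between the median score and the covered share. Score and width had a rho of 0.87 across run peaks, and the relation to covered share was not examined at fixed width.

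A few run peaks scored far above others of their width. On IV a peak of 387 bp from 13847285 to 13847671 scored 2163.9, where the median of the 505 isolated peaks of 300 to 399 bp was 113.4 and 1 of them scored as high. It closed a run whose other scores were 450.9 and 495.7. Also on IV, a peak of 500 bp from 13463670 to 13464169 scored 1907.4 in the middle of a run whose 4 other peaks scored 71.5 to 287.2, and 1 of 161 isolated peaks of 500 to 599 bp was as high. The other peaks among the 5 highest were wide for a run, 914 bp on III and 750 and 932 bp on V. The lowest scores were the 50 already given on IV and 50.07 for 2 peaks of 179 bp, on X from 2992987 to 2993165 and on V from 13955053 to 13955231.

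Chromosome IV held most runs and chromosome I fewest for its peaks. On IV there were 42 runs with 162 peaks, or 2.40 runs per Mb, and 15.1% of its peaks were in runs (95% exact interval 13.0 to 17.4%). Chromosome III had 32 runs at 2.32 per Mb and 14.9% of its peaks, II had 27 at 1.78 per Mb and 13.3%, and V had 33 at 1.58 per Mb and 13.1%. These shares lay close together. X had 23 runs at 1.30 per Mb with 11.2% of its peaks (9.03 to 13.6%). Chromosome I had 19 runs at 1.26 per Mb with 63 of its 797 peaks, or 7.90% (6.13 to 10.0%), although its overall density of 52.9 peaks per Mb was above that of II, V and X. Median scores of run peaks were lowest on I, at 86.8 (71.0 to 98.2), and highest on X and IV, at 126.8 (103.1 to 153.6) and 125.5 (109.9 to 149.6). The runs on I were made of the narrowest peaks, with a median of 277 bp against 413.5 bp on X, and score goes with width. Chromosomes were not compared at equal width. The same values were not taken for other peaks of each chromosome, so these differences are not shown to be particular to runs.

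Over the whole genome, the share of run peaks near chromosome centres was close to that of all peaks. On V runs were mostly central and on IV mostly outside the centre. On the autosomes of this species, the arms are known for high recombination and many repeats, and the centres for housekeeping genes. Of the 627 run peaks 46.7% had their midpoint in the central 50% of the chromosome (95% exact interval 42.8 to 50.7%). The share was 47.0% for all peaks and 45.8% for isolated narrow ones. Counted by runs, 84 of 176 or 47.7% (40.2 to 55.4%) were central. On V, 26 of 33 runs, or 78.8% (61.1 to 91.0%), were central, whereas the central share was 56.4% for all V peaks and 51.3% for its isolated narrow peaks (46.4 to 56.1%). On IV, 12 of 42 runs, or 28.6% (15.7 to 44.6%), were central, where all IV peaks had 42.7% and isolated ones 42.8%. The outer parts of IV carried 16 runs in the left 25% and 14 in the right 25%. On V those parts had 3 and 4. Without IV the central share was 52.7% for run peaks and 48.2% for all peaks. Without V, an alternative chosen after seeing the data, it was 40% for run peaks (95% exact interval 35.7 to 44.4%) and 45.1% for all peaks. That interval treats peaks as independent. It is too narrow, because the peaks of a run lie close together and fall inside or outside the centre together. Whether these shares differ was not tested. The genome-wide value averages over chromosomes on either side of it. Chromosome I had 6 of 19 central runs, II 15 of 27, III 14 of 32 and X 11 of 23, each with an interval that included the share of its isolated peaks. The same held for IV, whereas the interval of V lay above the share of its isolated peaks. The difference between IV and V was not tested.

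**Figure D4:**
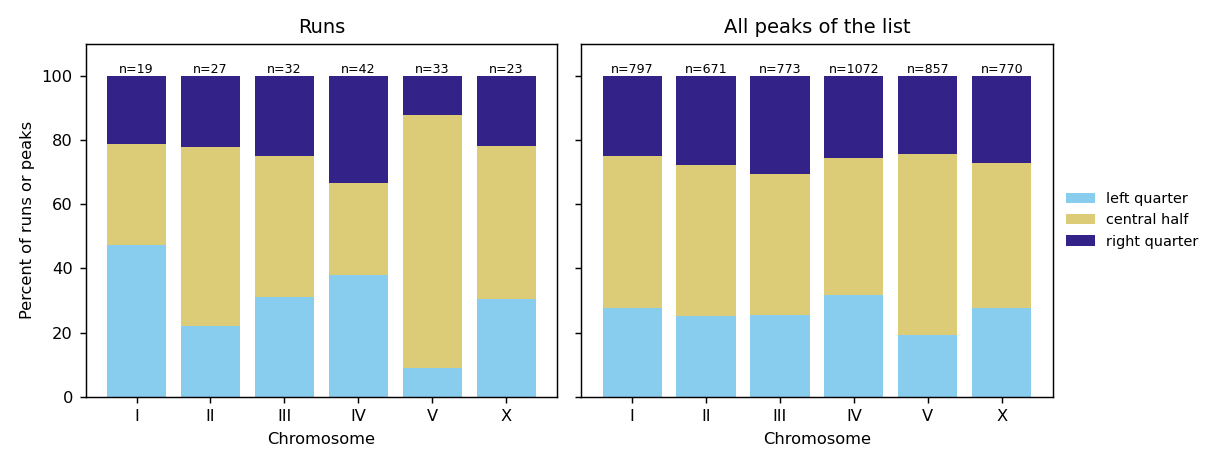
Percent of runs (left) and of all peaks of the list (right) whose midpoint lies in the left 25%, the central 50% or the right 25% of each chromosome, with the number of runs or peaks above each bar. On V 78.8% of the runs but 56.4% of the peaks are central; on IV 28.6% of the runs and 42.7% of the peaks are.

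Most runs lay far from one another. Each chromosome was cut into windows of 1 Mb, of which the last was shorter. Of these 103 windows, 26 held no run and 32 held 1. The fullest, 13000001 to 14000000 and 16000001 to 17000000 of IV, held 6 each. The nearest other run was at a median of 168144.5 bp from edge to edge, and 14 of 176 had another within 10000 bp. Their surroundings were mixed. Another peak of any kind lay within 2000 bp of 64 runs, or 36.4%, while 58 runs, or 33.0%, had none within 10000 bp. The same shares were not taken for other peaks of the list, so these are not shown to be particular to runs. The nearest broad peak was at a median of 70557.5 bp from a run (95% interval of the median 55350 to 94480 bp) and of 102974.5 bp from an isolated narrow peak, and 19 runs, or 10.8%, had one within 5000 bp against 6.06% of isolated peaks. By the rule, neither an isolated peak nor a run has a further neighbour nearer than 500 bp. No run held the first or the last peak of a chromosome.

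Chains lay close to the width limit on both sides. The widest peaks in runs measured 996 bp on X from 11469581 to 11472749, 970 bp on II from 1450817 to 1453060 and 967 bp on III from 11605164 to 11607523, with median scores of 130.7, 462.9 and 390.9. The chains that just missed the limit had widest peaks of 1005 bp on II from 2001837 to 2003967, 1007 bp on I from 13739696 to 13742221 and 1011 bp on II from 14991432 to 14994600, with median scores of 355.1, 344.0 and 367.0. The widest gaps inside runs were 469, 470 and 472 bp, and the narrowest gaps of the list that ended a chain were 501 and 502 bp.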

How the data were processed

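The authors deposited 1 list of peaks of the CHD-3 immunoprecipitate. Peaks were called with MACS on WormBase WS220, per the file headers and source column, and BWA and build ce10 are named, per the submitters' processing notes. Not given in the sources used here are the MACS and BWA versions, the threshold, the control, the read filters and any pooling. The deposited score of a peak has no named scale and was used only to describe and rank peaks within the list, so ratios and differences of it depend on that scale.

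Peaks were chained with Python 3.11.15, numpy 2.4.6 and scipy 1.17.1, with code tested on simulated data. Positions count from 1. Chromosome spans run from base 1 to the end of the last peak. Intervals of medians come from binomial order statistics and those of shares are exact (Clopper-Pearson), both at 95%. Depth is unknown. The runs named are the 10 with most peaks, the run with most peaks of each chromosome and those next to the width limit. Also named are the 3 highest and 3 lowest by median score, by covered share and, with 5 or more peaks, by spacing CV. The 5 highest and 3 lowest peaks are named beside them. The members were chosen with earlier results of these data known. Alternatives changed the gap, the width limit, the number of peaks, the score threshold, the chromosomes used, the width bins, the central share and the distance measure. Gene positions and sequence were not used here, since the gene table at hand is of another build.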

Additional observations from a re-analysis of the deposited data

How the results depend on the processing

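Of 60 alternatives over 8 results, 24 stayed within 1.5 times the reported count or inside the interval of the reported value and 36 moved. For the score ratio that interval was 0.978 to 1.033. It was centred on the weighted ratio but took its width from the interval of the median ratio of individual run peaks, so it is approximate. The spacing CV in runs of 4 or more peaks, 1 of the 24, could not move because it is taken only there. Leaving out V was chosen after seeing the data. No paired analysis was possible because each group holds 1 sample and input values were not used. With gaps under 250 bp there were 106 runs with 7.63% of peaks, a median span of 1479.5 bp, 87.8% covered, a spacing CV of 0.220, a score ratio to isolated peaks of 1.04 and 41.9% of run peaks central. With gaps under 1000 bp the share was 17.3%, the span 1895 bp, the covered share 67.7%, the CV 0.376 and the ratio 0.973. With peaks under 500 bp wide there were 81 runs with 5.55% of peaks, 1433 bp, 69.1% covered and a median score of 88.9; under 2000 bp wide the share was 17.9%, the span 1869.5 bp, the covered share 81.1% and the score 131.3. Runs of 4 or more peaks numbered 58, with 5.53% of peaks and 1928 bp. The 50% of peaks with the highest score gave 36 runs with 4.74% of those peaks, 2260.5 bp, 82.04% covered, a CV of 0.187 from 7 runs, a median score of 255.04, a ratio of 1.08 and 41.9% central, where 49.2% of those peaks were. Between starts the CV was 0.376. The central share was 52.7% without IV and 40% without V, where all peaks had 48.2% and 45.1%, and 33.8% for the central 40% of the span, where all peaks had 36.1%. Number, span and covered share follow the gap and width limits by construction. The settings also fixed the direction of further changes. These are the lower central share in a narrower centre, the fewer runs when 4 or more peaks are required, and the higher score among the highest-scoring peaks. The median score also goes with the width limit, since score and width had a rho of 0.87 across run peaks. Runs of 3, left out when 4 or more peaks are required, had a median span of 1486.5 bp. The cause of the other changes was not tested. Depth could not be examined.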

Other observations

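The densest group of runs lay near the left end of III. From 322091 to 331198, over 9.11 kb, 4 runs of 3, 5, 5 and 4 peaks followed each other, separated by 703, 656 and 589 bp, just over the 500 bp limit, and their 17 peaks scored 52.2 to 308.8. In all, 6 groups joined 14 runs that lay within 10000 bp of the next, and the other 5 groups held 2 runs each, on III, on IV in 3 places and on X. The group on IV from 13845715 to 13851027 included the peak scored 2163.9.

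Low-scoring run peaks often shared both width and score with other peaks of the list. The run of 6 peaks on I from 11228813 to 11231359 held 3 peaks that were each 188 bp wide and scored 51.48, and that combination occurred 14 times in the list, 4 of them in runs. Of the 83 run peaks with a score under 60, 54 or 65.1% (95% exact interval 53.8 to 75.2%) matched another peak in both values, next to 59.3% of 428 isolated narrow peaks with such scores. Over all scores the share was 19.9% of run peaks and 25.8% of isolated ones. Why the values repeat was not tested.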
